A study of Mus musculus with 18 samples.

Results

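The genes examined here are 9 transcription factors that mark the classes of spinal interneurons: Evx1, En1, Sox14, Gata2, Gata3, Tal1, Sim1, Pax2 and Lbx1. They were chosen by name, as class markers, and all 9 were found among the 27179 genes of the deposited count tables. All 9 also passed the filter on low counts, which asked for at least 1 read in any library with an induced Hox gene and left 20944 genes to test.

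Interneurons of the ventral spinal cord arise from progenitor domains that are set out by Sonic hedgehog, and each class switches on its own transcription factors as it leaves the cell cycle. Evx1 marks V0 neurons, whose axons cross the midline. En1 marks the inhibitory V1 neurons. The V2 domain splits through Notch signaling into excitatory V2a neurons, of which a part express Sox14, and inhibitory V2b neurons, which express Gata2, Gata3 and Tal1. Sim1 marks V3 neurons, which are excitatory and arise next to the floor plate, just ventral to the motor neuron (MN) domain. Pax2 is shared by several mostly inhibitory classes, and Lbx1 marks dorsal classes. None of these factors belongs to the spinal cord alone: Gata2 and Tal1 act in blood and endothelium, Gata3 also in trophectoderm, En1 and Pax2 at the midbrain-hindbrain boundary, Pax2 in the kidney and Sim1 in the hypothalamus.

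RNA came from mouse embryonic stem cells (ESCs) differentiated toward MNs as embryoid bodies, which are floating aggregates of mixed cell types, in 18 libraries that form 6 groups of 3. Every group received 1 µM all-trans retinoic acid (RA) and 0.5 µM smoothened agonist (SAG), which activates hedgehog signaling. Progenitors were collected at day 2 from the Ainv15(iCre) line without doxycycline (Dox). iHoxc6, iHoxc8, iHoxc9 and iHoxc10 neurons were collected at day 4 from the lines Ainv15(iFlag.Hoxc6), Ainv15(iFlag.Hoxc8), Ainv15(iFlag.Hoxc9) and Ainv15(iFlag.Hoxc10) after 48 h in 3 µg/ml Dox, which switches on the Flag-tagged Hox gene that each line carries as a lone copy at the HPRT locus. The control neurons were the iHoxc6 line at day 4 without Dox, so the controls also carry that transgene, uninduced. Dox acts on every cell of the embryoid body and not on a chosen neuron class, and whether a line is 1 clone is not given in the sources used here. The libraries came from 4 sequencing runs. Control and iHoxc6 shared a run and a line. iHoxc9 and iHoxc10 shared another run but are different lines, so between them line and induced Hox gene cannot be told apart. Day 2 and iHoxc8 had a run each, and outside these pairs the effects of run, line and induced Hox gene cannot be told apart.

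Total counts ran from 24498630 to 33168533 per library, so that 3 reads corresponded to 0.0905 to 0.123 CPM on these totals, before TMM normalization. CPM is the usual scale of reads relative to the library total, and the levels given here are CPM with TMM normalization. A gene at or under 3 reads in every library of a group is treated here as not detectable at this depth. Each Hox gene was high in its own line: Hoxc6 at 500 to 532 CPM, Hoxc8 at 361 to 410 CPM, Hoxc9 at 213 to 236 CPM and Hoxc10 at 425 to 433 CPM, against at most 5.17 CPM for any of them in the day 2 and control libraries. Hoxc6 also reached 49.4 CPM in an iHoxc10 library, the highest level of any of these genes in a line induced for another. The pan-neuronal genes Tubb3, Elavl3, Elavl4, Dcx and Snap25 summed to 4054 CPM or more in every day 4 library and to at most 471 CPM at day 2. The third day 2 library stood apart from the other two, with 2104 reads for the floor plate gene Foxa2 against 585 and 604, and the differences of Tal1, Gata2 and En1 from day 2 are given with and without it.

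Sequence upstream of the start sites was examined because the induced proteins bind DNA. RefSeq promoter windows of 250 bases before an annotated start, on GRCm38.p6, were found for 8 of the 9 genes, in 12 windows, and not for Lbx1. The core letters TTTAT, which posterior Hox proteins can read, stood on either strand in 6 of these 12 windows, and TAAT, the general homeodomain core, in 4. Over all 32851 windows the shares were 37.3% for TTTAT and 54.9% for TAAT. The longer TGATTTAT, a site for Hox proteins with a Pbx partner, was in 0 of the 12 windows and in 0.837% of all. Searches for TTTAT and TAAT can overlap. Shown here are the sequences before the starts of the 3 genes whose RNA differed most from control, Sox14 at chr9:99876171-99876420 on the minus strand, Tal1 at chr4:115056176-115056425 on the plus strand, and Sim1 at chr10:50895401-50895472 on the plus strand, with each TTTAT or TAAT, on either strand, in capitals:
Sox14: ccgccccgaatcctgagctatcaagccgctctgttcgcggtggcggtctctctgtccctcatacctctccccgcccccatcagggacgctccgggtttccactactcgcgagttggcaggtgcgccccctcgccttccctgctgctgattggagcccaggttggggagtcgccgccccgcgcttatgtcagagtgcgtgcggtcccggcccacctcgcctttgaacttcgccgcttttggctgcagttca
Tal1: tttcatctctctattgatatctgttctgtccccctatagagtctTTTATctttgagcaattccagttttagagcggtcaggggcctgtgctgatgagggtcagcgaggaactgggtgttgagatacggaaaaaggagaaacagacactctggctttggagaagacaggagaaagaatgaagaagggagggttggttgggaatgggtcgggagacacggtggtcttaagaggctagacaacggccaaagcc
Sim1: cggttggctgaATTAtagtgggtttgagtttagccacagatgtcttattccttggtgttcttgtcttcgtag
The Sox14 window held neither core, the Tal1 window shown held 1 TTTAT, and the 72 bases of the Sim1 window that lie outside annotated exons held 1 TAAT. The full Sim1 window of 250 bases held 1 TTTAT and 3 TAAT. It lies before an annotated start inside the gene, downstream of the gene's first base at chr10:50894698. A second Tal1 start in the table, at chr4:115057561-115057810, held 1 TTTAT and 2 TAAT in its window. A match is only letters in a window and not a bound site.

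The 9 genes were weakly expressed together. Their summed level separated iHoxc9 and iHoxc10 from each other and from iHoxc6 and iHoxc8, whose sums overlapped. It was 5.37 to 7.89 CPM at day 2 and 5.46 to 6.14 CPM in control. The sum was 2.30 to 3.10 CPM for iHoxc6 and 3.01 to 3.79 CPM for iHoxc8, against 18.8 to 23.7 CPM for iHoxc9 and 7.74 to 11.5 CPM for iHoxc10. The iHoxc6 and iHoxc8 sums lay below every control library and the iHoxc9 and iHoxc10 sums above. The higher sums were those of Sim1: without it, the other 8 genes summed to 3.58 to 5.95 CPM in iHoxc9 and 3.83 to 4.30 CPM in iHoxc10, against 4.72 to 5.80 CPM in control. Per kilobase of exon, which allows genes to be compared, Sim1 led in iHoxc9 with 1.98 CPM per kb, followed by Sox14 with 0.497, Pax2 with 0.312 and En1 with 0.295. In control neurons the first on that scale was Tal1 with 0.331 CPM per kb, and Sim1 was the last with 0.0535.

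**Figure D1:**
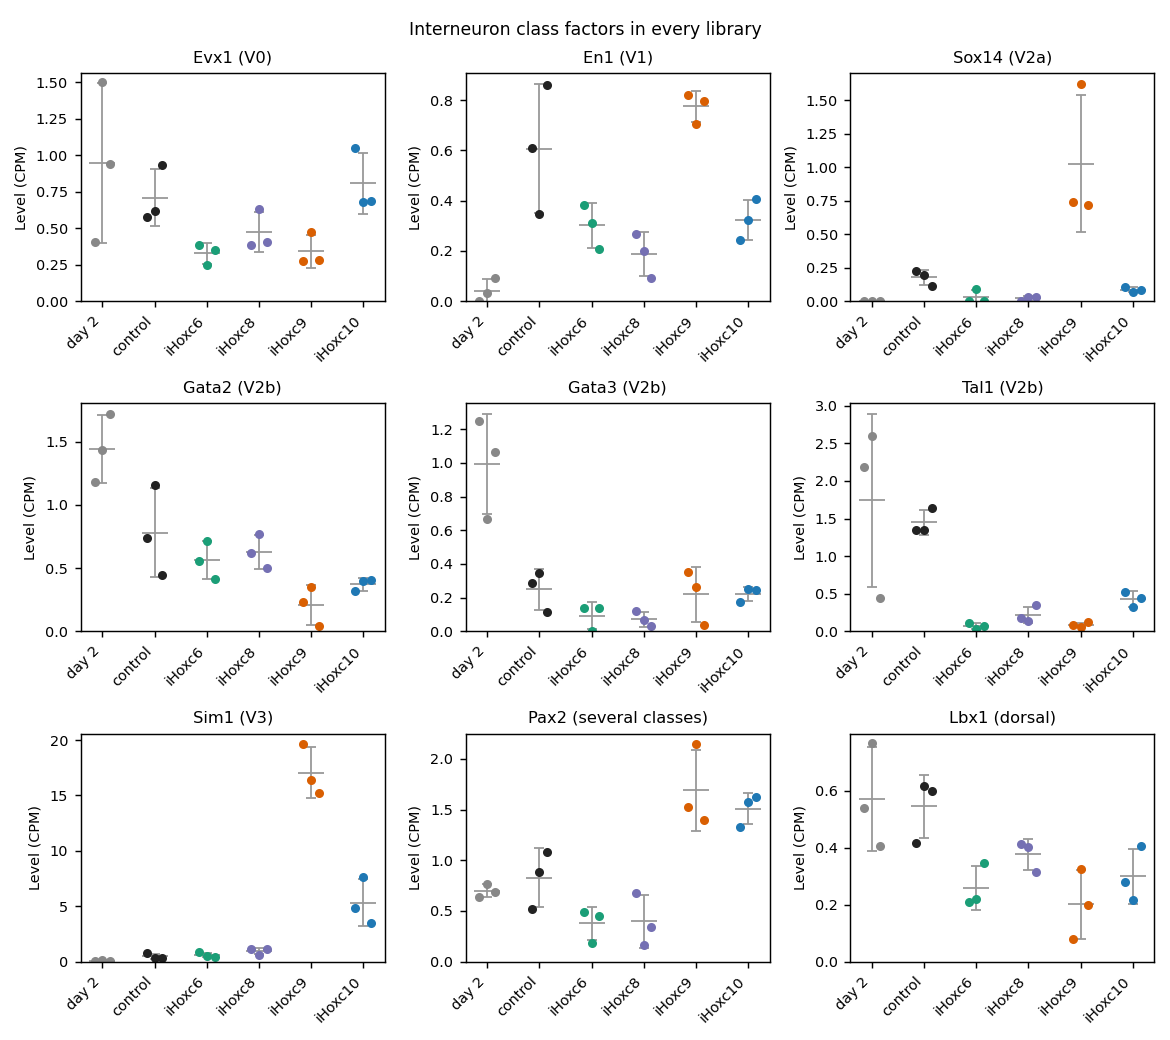
Level of each of the 9 class factors in CPM (vertical axes, 1 panel per gene) in the 3 libraries of each group, with points for libraries and bars for the mean ± SD. Sim1 reached a mean of 17.1 CPM in iHoxc9 and 5.31 CPM in iHoxc10, and Tal1 was at 1.45 CPM in control and at most 0.431 CPM in the 4 induced lines.

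Against control, 1 to 4 of the 9 genes were called in each line: Tal1 as lower in all 4, Sim1 as higher in iHoxc9 and iHoxc10, and Sox14 as higher and Gata2 as lower in iHoxc9. Tests were made in edgeR (quasi-likelihood, all 18 libraries in 1 fit) and a gene was called at a Benjamini-Hochberg adjusted p below 0.01 over all 20944 genes. In iHoxc6 1 of 9 was called, against 0.587% of all genes, and in iHoxc8 1 of 9, against 2.12%. In iHoxc9 4 of 9 were called, against 14.1%, and in iHoxc10 2 of 9, against 14.4%. With the added limit of an absolute log2 fold change above 2, which the study's methods also used, the counts were 1, 1, 3 and 1 of 9 beside 0.115%, 0.220%, 2.70% and 1.48% of all genes. At an unadjusted p below 0.05 in the same edgeR tests, 6, 6, 7 and 4 of 9 passed. The share of all genes at that limit is not reported here. The median log2 fold change of the 9 was -1.11 (iHoxc6), -1.02 (iHoxc8), -0.17 (iHoxc9) and -0.85 (iHoxc10), where the median over all genes was 0.02 for iHoxc8 and 0.00 for the others. These 4 comparisons share their control libraries. With 3 libraries a group an exact permutation test cannot go below p = 0.10, so single genes rest on the fit across all genes, and p-values measure the spread between these differentiations.

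**Figure D2:**
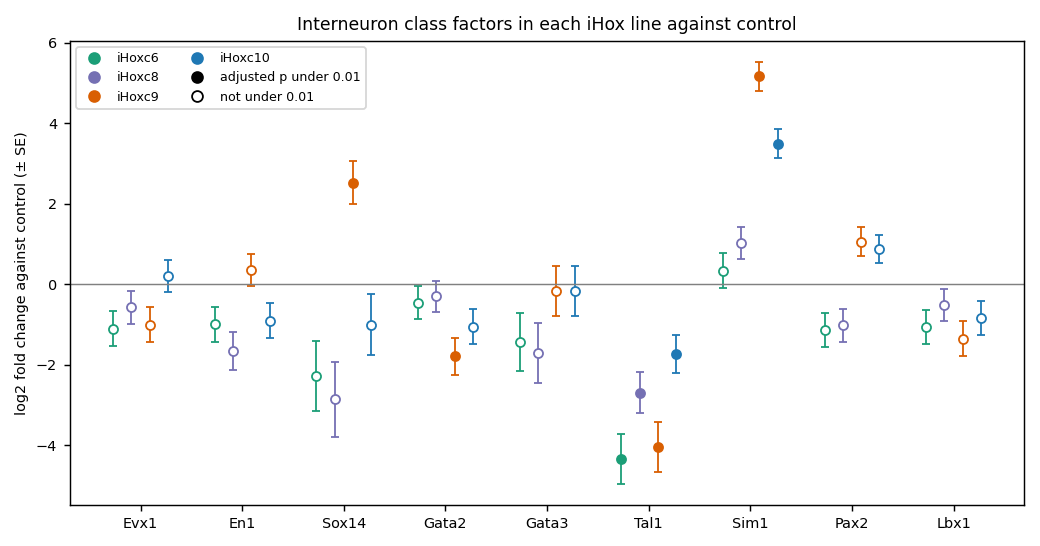
Log2 fold change against control (vertical axis) of the 9 class factors in the 4 induced lines, with SE bars and filled symbols for an adjusted p below 0.01. Tal1 lies below 0 in every line, from -4.34 in iHoxc6 to -1.74 in iHoxc10, and Sim1 lies highest, at 5.16 in iHoxc9 and 3.49 in iHoxc10.

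Evx1 (Entrez 14028, chr6:52313498-52318389, GRCm38), the V0 factor, did not pass the test in any line against control. Its 3 control libraries held 18, 16 and 25 reads. It counted 11, 8 and 10 reads in iHoxc6 and 7, 16 and 7 in iHoxc9, and 13, 19 and 13 in iHoxc8 and 30, 19 and 17 in iHoxc10. On the log2 scale the difference from control was -1.11 ± 0.44 (SE, adjusted p = 0.147) for iHoxc6 and -1.01 ± 0.44 (0.0997) for iHoxc9, and -0.58 ± 0.41 (0.436) for iHoxc8 and 0.19 ± 0.40 (0.80) for iHoxc10. The order of its mean levels ran from day 2 (0.946 CPM) through iHoxc10, control, iHoxc8 and iHoxc9 to iHoxc6 (0.327 CPM), and the libraries of each group overlapped those of the next. Evx1 overlaps the antisense RNA Evx1os, which held 3 to 29 reads per library, and the strand setting of the counting is not given in the sources used here.

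En1 (Entrez 13798, chr1:120602487-120607991), which defines V1 neurons, was nearly absent at day 2 with 0, 1 and 3 reads and appeared by day 4. Control libraries held 19, 9 and 23 reads, a mean of 0.606 ± 0.257 CPM (SD, n = 3). Every iHoxc9 library held 20 reads or more (0.775 ± 0.0605 CPM), every iHoxc8 library 9 or fewer (0.187 ± 0.0870 CPM), and iHoxc6 (0.301 ± 0.0880 CPM) and iHoxc10 (0.324 ± 0.0800 CPM) lay between. Against control no line passed: the largest difference was in iHoxc8, -1.67 ± 0.47 (adjusted p = 0.0304). That comparison passed without the second control library (adjusted p = 0.0078). Its paralog En2, a gene of the midbrain-hindbrain boundary, was lower than control in iHoxc9 (log2 change -2.27, adjusted p = 7.11e-05) and in iHoxc10 (-1.77, 0.000627). The list of 4 boundary markers (En2, Pax5, Wnt1 and Fgf8) summed to 2.38 to 3.82 CPM in control and to 0.861 to 0.942 CPM in iHoxc9.

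Sox14 (Entrez 20669, chr9:99874106-99876170), a factor of V2a neurons, rose in iHoxc9 neurons and passed the test in no other line. It had 0 reads in all 3 day 2 libraries and 7, 5 and 3 in control. iHoxc9 libraries held 19, 55 and 18 reads, all above every other library, for a mean of 1.03 ± 0.513 CPM (SD, n = 3). This was 6.07 times the control level by summed reads, with a 95% interval of 3.50 to 11.3 for counting error, and 2.52 ± 0.53 on the log2 scale (adjusted p = 0.00156). The call did not hold without the third control library (adjusted p = 0.016) or the second iHoxc9 library (0.026). iHoxc6 held 0, 3 and 0 reads, iHoxc8 0, 1 and 1, and iHoxc10 3, 2 and 2, which are at or under the floor, so Sox14 was not detectable there at this depth. Between iHoxc9 and iHoxc10, inside 1 run, the difference was 3.53 ± 0.60 (adjusted p = 0.000444), and it held without any 1 library.

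Of the V2b factors, Tal1 was called as lower than control in every line and Gata2 in iHoxc9. Tal1 (Entrez 21349, chr4:115056426-115071755), a basic helix-loop-helix protein that works with GATA factors, was the one member called as lower than control in all 4 lines. Control libraries held 42, 35 and 44 reads, a mean of 1.45 ± 0.172 CPM (SD, n = 3). The induced lines held 3, 1 and 2 reads (iHoxc6), 6, 4 and 11 (iHoxc8), 2, 2 and 3 (iHoxc9) and 15, 9 and 11 (iHoxc10). No induced library reached the lowest control library, and Tal1 was not detectable at this depth in iHoxc6 and iHoxc9. In bulk RNA, fewer Tal1-expressing cells and less Tal1 RNA per cell cannot be told apart.

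By summed reads Tal1 was 21.6 times lower in iHoxc6 (95% counting interval 9.63 to 59.9) and 17.5 times lower in iHoxc9 (8.22 to 44.4). It was 6.58 times lower in iHoxc8 (4.12 to 11.0) and 3.35 times lower in iHoxc10 (2.28 to 5.03). The fitted log2 changes were -4.34 ± 0.62 (adjusted p = 0.000335), -4.05 ± 0.61 (3.98e-05), -2.70 ± 0.51 (0.00303) and -1.74 ± 0.47 (0.00909), in that order. The iHoxc6 comparison lies within a run and within a line, and its call and that of iHoxc9 held without any 1 library. The iHoxc8 call did not hold without the third control library (adjusted p = 0.019) or the first iHoxc8 library (0.020). The iHoxc10 call did not hold without any 1 of its 6 libraries (adjusted p from 0.012 to 0.048), nor with a stricter filter on low counts (0.011).

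Gata2 (Entrez 14461, chr6:88193891-88207032), which the V2b lineage switches on early, was lower than control in iHoxc9. Its reads were 23, 30 and 12 in control and 6, 12 and 1 in iHoxc9, where the highest iHoxc9 library equaled the lowest control library in reads but lay below it in CPM. The change was -1.80 ± 0.46 on the log2 scale (adjusted p = 0.0060). This call did not hold without the first (adjusted p = 0.014) or the second (0.030) control library, without the first (0.021) or the third (0.028) iHoxc9 library, nor in a fit of these groups alone (0.023). The other lines gave -0.46 ± 0.40 (iHoxc6), -0.31 ± 0.39 (iHoxc8) and -1.06 ± 0.43 (iHoxc10; adjusted p = 0.553, 0.684 and 0.0767). Gata3 (Entrez 14462, chr2:9857078-9887953), which maintains V2b neurons, held at most 9 reads in any day 4 library and passed in no line, with log2 differences from -1.72 to -0.17 and adjusted p from 0.16 to 0.925. The trophectoderm markers Cdx2, Elf5 and Krt7 summed to at most 0.965 CPM in every day 4 library, and Cdx2 and Elf5 were at or under 3 reads in every library.

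Since Gata2 and Tal1 also belong to blood, markers of blood and endothelium were read beside them. The embryonic globin gene Hbb-bh1 held 46, 56 and 33 reads in control and 8, 21 and 14 in iHoxc6. It held 1, 0 and 9 reads for iHoxc8, 5, 3 and 7 for iHoxc10, and 0 in all 3 iHoxc9 libraries. Hba-x, another embryonic globin, averaged 2.07 CPM in control and 0.749 (iHoxc6), 0.365 (iHoxc8), 0.0557 (iHoxc9) and 0.340 (iHoxc10) CPM in the induced lines. The mean of each globin was thus below its control mean in the same 4 lines as that of Tal1. Of the 13 genes on the blood and endothelial list, 0 passed in iHoxc6 by edgeR and by DESeq2 (2 at an unadjusted p below 0.05), beside 0.587% of all genes. In iHoxc8 2 passed, 1 in each direction, beside 2.12%. In iHoxc9 3 passed, beside 14.1%, and in iHoxc10 2, beside 14.4%, all lower. The defining factors Gata1, Spi1 and Lyl1 were at or under 3 reads in every library. The list summed to 9.25 to 12.9 CPM in control. The induced lines summed to 8.20 to 8.68 CPM (iHoxc6), 13.2 to 24.2 CPM (iHoxc8), 2.47 to 3.09 CPM (iHoxc9) and 6.77 to 15.2 CPM (iHoxc10), and Runx1, which some neurons express too, made up most of the iHoxc8 sum with a mean of 16.6 CPM. The part that blood cells have in the Tal1 and Gata2 differences was not tested.

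**Figure D3:**
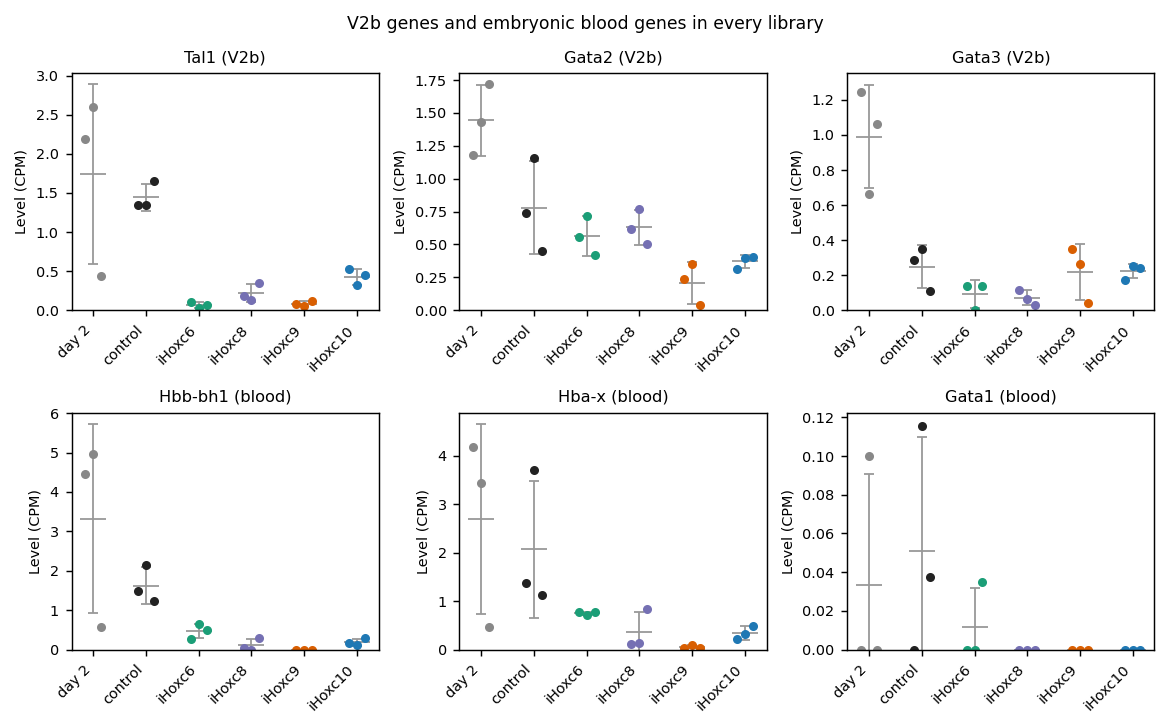
Level in CPM (vertical axes) of the V2b factors Tal1, Gata2 and Gata3 and of the blood genes Hbb-bh1, Hba-x and Gata1 in each library, with bars for the mean ± SD of 3. The means of Tal1 and of both globin genes are lower in the induced lines than in control, where Tal1 averaged 1.45 CPM and Hbb-bh1 1.62 CPM, and Gata1 stays at or under 3 reads in every library.

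Sim1 (Entrez 20464, chr10:50894698-50989156), a PAS-domain factor that V3 neurons need to reach their place, gave the highest level and the largest change of the 9. It held 23, 8 and 9 reads in control, 24, 16 and 13 in iHoxc6 and 38, 18 and 36 in iHoxc8. It held 501, 557 and 382 reads in iHoxc9 and 139, 213 and 85 in iHoxc10. Every iHoxc9 library was above every iHoxc10 library, and every iHoxc10 library above all others, while control, iHoxc6 and iHoxc8 overlapped. Mean levels were 0.461 ± 0.241 CPM in control, 17.1 ± 2.27 CPM for iHoxc9 and 5.31 ± 2.13 CPM for iHoxc10, against 0.595 ± 0.210 CPM for iHoxc6 and 0.950 ± 0.302 CPM for iHoxc8 (SD, n = 3 each).

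Sim1 was 35.6 times higher in iHoxc9 than in control (95% counting interval 26.0 to 50.1) and 11.3 times higher in iHoxc10 (8.15 to 16.0). The fitted log2 changes were 5.16 ± 0.36 (adjusted p = 6.76e-10) and 3.49 ± 0.36 (4.9e-07), and both held without any 1 library. iHoxc6 (0.33 ± 0.43, adjusted p = 0.704) and iHoxc8 (1.01 ± 0.40, 0.12) did not pass. Within their shared run, iHoxc9 exceeded iHoxc10 by 1.68 ± 0.28 (adjusted p = 0.000295), a ratio of 3.16 with a counting interval of 2.84 to 3.52. The paralog Sim2 was at 0 reads at day 2, at 10, 3 and 6 in control, and at or under 3 in every library of the induced lines, so it did not rise with Sim1.

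Of the V3 list (Nkx2-2, Nkx2-9, Uncx and Olig3), 3 genes moved with Sim1 and Nkx2-9 moved against it. All 4 passed in iHoxc9, beside 14.1% of all genes, and all 4 in iHoxc10, beside 14.4%. In each line 3 were higher and Nkx2-9 was lower. Nkx2-2, the factor of the V3 progenitor domain, averaged 8.54 CPM in control, 29.5 in iHoxc9 and 19.1 in iHoxc10, with log2 changes of 1.79 ± 0.22 and 1.16 ± 0.22 (adjusted p = 2.74e-06 and 0.000481). Uncx, found in postmitotic V3 neurons, rose from 11, 13 and 16 reads in control to 175, 281 and 146 in iHoxc9 and 50, 103 and 57 in iHoxc10. Olig3, a factor of dorsal progenitors that V3 precursors also express, rose from 8, 2 and 10 reads to 107, 245 and 108 and to 31, 62 and 20. For Uncx and Olig3 the iHoxc9 libraries stood above the iHoxc10 libraries, and those above control. Their log2 changes were 3.85 ± 0.35 and 4.44 ± 0.45 in iHoxc9 and 2.42 ± 0.35 and 2.51 ± 0.47 in iHoxc10 (adjusted p from 3.11e-08 to 0.000494).

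Nkx2-9, also a gene of ventral progenitors, moved against the other 3 of its list. It was abundant at day 2 with 1170, 1340 and 1509 reads, had fallen to 52, 170 and 46 in control, and held 11, 13 and 4 in iHoxc9 and 15, 6 and 10 in iHoxc10. Its log2 changes against control were -3.30 ± 0.50 and -3.09 ± 0.49 (adjusted p = 4.79e-05 and 0.0001). In iHoxc6 and in iHoxc8, 0 of 4 genes of the list passed by edgeR and by DESeq2 (2 and 3 at an unadjusted p below 0.05), beside 0.587% and 2.12% of all genes.

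Markers of neighboring cells were read beside Sim1. Foxa2, a gene of the floor plate, averaged 22.2 CPM in control, 16.8 in iHoxc9 and 18.7 in iHoxc10, and passed the test against control in neither line. Shh, the signal that the floor plate secretes, held 979, 624 and 697 reads in control, 99, 284 and 79 in iHoxc9 and 559, 870 and 403 in iHoxc10. It was 2.39 ± 0.43 lower than control on the log2 scale in iHoxc9 (adjusted p = 0.000307), and its difference in iHoxc10 (-0.28 ± 0.40, adjusted p = 0.674) did not pass. MN markers (Mnx1, Isl1, Lhx3, Chat, Slc18a3 and Slc5a7) summed to 495 to 525 CPM in control, 256 to 275 in iHoxc9 and 480 to 538 in iHoxc10. Against control, 4 of 6 passed as lower in iHoxc9, beside 14.1% of all genes passing in either direction. In iHoxc10 1 of 6 passed as lower, beside 14.4%. Neural progenitor markers summed to 283 to 610 CPM in control, 509 to 563 in iHoxc9 and 357 to 391 in iHoxc10. The part that a changed mix of these cells has in the Sim1 and Sox14 differences was not tested.

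**Figure D4:**
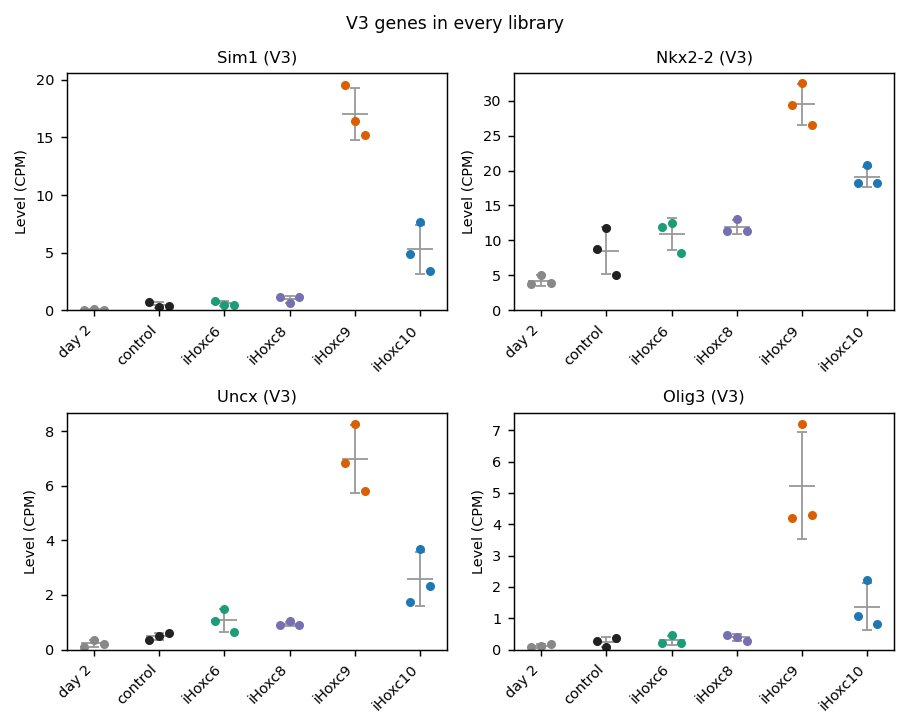
Level in CPM (vertical axes) of the V3 genes Sim1, Nkx2-2, Uncx and Olig3 in each library, with bars for the mean ± SD of 3. All 4 genes shown have their highest mean in iHoxc9 and the next in iHoxc10 (Sim1 17.1 and 5.31 CPM, Nkx2-2 29.5 and 19.1 CPM). Nkx2-9, also on the V3 list, is not shown and was lower than control in iHoxc9 and iHoxc10 (log2 changes -3.30 and -3.09).

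Among genes with a mean of at least 1 CPM over the 15 day 4 libraries, the 3 whose levels were most like those of Sim1 were 2510009E07Rik, Ldb2 and Cyp26a1 (Pearson r of log2(CPM + 1) of 0.976, 0.974 and 0.973 over 15 libraries, 13036 genes considered). Ldb2 encodes a partner of LIM-domain proteins and Cyp26a1 the enzyme that breaks down RA. Ldb2 averaged 0.528 CPM in control, 15.5 in iHoxc9 and 3.98 in iHoxc10, and Cyp26a1 averaged 5.87, 131 and 30.3 CPM. Cyp26a1 was also high at day 2, at 110 CPM, where Sim1 was at 0.0660 CPM, so its likeness to Sim1 is one of day 4 only. The 15 libraries fall into groups of 3 that share a line and a treatment, so these points are not independent. Over all 18 libraries the 3 genes were Pcsk5, Nrxn3 and Nr4a3, and with a pseudocount of 0.1 they were 2510009E07Rik, Epha7 and Abca1.

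Pax2 (Entrez 18504, chr19:44746601-44838269), a paired-box factor shared by V0, V1 and dorsal inhibitory neurons, split the lines into a low and a high pair. Reads were 16, 23 and 29 in control, 14, 6 and 13 (iHoxc6) and 23, 5 and 11 (iHoxc8) in the low pair, and 39, 73 and 35 (iHoxc9) and 38, 44 and 40 (iHoxc10) in the high pair. All iHoxc9 and iHoxc10 libraries were above all control, iHoxc6 and iHoxc8 libraries. Against control no line passed: the log2 differences were -1.14 ± 0.42 (iHoxc6), -1.02 ± 0.41 (iHoxc8), 1.05 ± 0.36 (iHoxc9) and 0.87 ± 0.36 (iHoxc10; adjusted p = 0.123, 0.129, 0.0373 and 0.088). Between lines 4 of 6 comparisons passed. iHoxc6 was 2.18 ± 0.39 lower than iHoxc9 and 2.01 ± 0.40 lower than iHoxc10, and iHoxc8 was 2.07 ± 0.38 and 1.89 ± 0.39 lower, on the log2 scale (adjusted p = 0.000366, 0.00115, 0.000718 and 0.00347). Of these, iHoxc6 against iHoxc10 did not hold without the second iHoxc6 library (adjusted p = 0.012), and iHoxc8 against iHoxc10 did not hold without the second or the third iHoxc8 library or any 1 of the iHoxc10 libraries (0.010 to 0.022).

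Kidney and boundary markers were read beside Pax2. Osr1, Six2, Wt1 and Pax8, genes of intermediate mesoderm and kidney of which Wt1 and Pax8 also mark interneurons, summed to 1.20 to 2.16 CPM in control, 0.235 to 0.559 in iHoxc9 and 0.315 to 0.645 in iHoxc10. The boundary markers summed to 2.38 to 3.82 CPM in control, 0.861 to 0.942 in iHoxc9 and 1.00 to 1.42 in iHoxc10. The part that such cells have in the Pax2 differences was not tested. Of 4 transmitter genes of inhibitory neurons, 1 passed as lower than control in iHoxc9, beside 14.1% of all genes passing in either direction. Slc32a1, the vesicular transporter of GABA and glycine, held 14, 18 and 22 reads in control, 3, 3 and 0 in iHoxc9 and 16, 24 and 16 in iHoxc10. It was 3.13 ± 0.53 lower in iHoxc9 than in control (adjusted p = 0.000167) and 3.21 ± 0.53 lower than in iHoxc10 (0.000229), on the log2 scale. Gad2, an enzyme of GABA synthesis, lay the other way in iHoxc9, with 33, 30 and 25 reads against 13, 11 and 10 in control, a difference of 1.37 ± 0.45 that did not pass (adjusted p = 0.0315).

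Lbx1 (Entrez 16814, chr19:45232684-45236841), which sets dorsal classes apart from their neighbors, stayed low. It held 13, 16 and 16 reads in control, and 6, 7 and 10 (iHoxc6), 14, 12 and 10 (iHoxc8), 2, 11 and 5 (iHoxc9) and 8, 6 and 10 (iHoxc10) in the induced lines. Every induced line had a lower mean than control, and each line's 3 libraries were below the 3 control libraries in CPM. No log2 difference passed: -1.06 ± 0.42 (iHoxc6), -0.52 ± 0.40 (iHoxc8), -1.36 ± 0.44 (iHoxc9) and -0.85 ± 0.42 (iHoxc10; adjusted p = 0.154, 0.475, 0.0285 and 0.156). Of the list of 14 other dorsal genes, 2 passed in iHoxc6, both higher, beside 0.587% of all genes. In iHoxc8 0 passed by edgeR (4 at an unadjusted p below 0.05, 1 by DESeq2), beside 2.12%. In iHoxc9 6 passed, 3 higher and 3 lower, beside 14.1%. In iHoxc10 5 passed, 3 higher and 2 lower, beside 14.4%. Those higher in iHoxc9 included Tlx3, a selector of excitatory dorsal neurons. It held 19, 12 and 21 reads in control and 179, 205 and 155 in iHoxc9 (log2 change 3.36 ± 0.33, adjusted p = 9.28e-08). Ptf1a, the selector of dorsal inhibitory neurons, had 0 reads in every control library and 11, 45 and 11 in iHoxc9, at least 6.76-fold higher against a floor of 3 reads per library (adjusted p = 0.000133). Those lower in iHoxc9 included Wt1 (log2 change -2.96, adjusted p = 0.000107).

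Compared with each other, the lines differed most in Sim1, which separated 5 of the 6 pairs, and in Pax2, which separated 4. Between iHoxc6 and iHoxc8, 0 of the 9 genes were called by edgeR and by DESeq2 (1 at an unadjusted p below 0.05), against 3.55% of all genes. Against iHoxc9, 3 were called in iHoxc6 (11.7% of all genes) and 4 in iHoxc8 (5.37%). Against iHoxc10, 2 were called in iHoxc6 (11.0%) and 2 in iHoxc8 (2.93%). Between iHoxc9 and iHoxc10, which shared a run, Sox14 and Sim1 were called, 2 of 9 beside 4.99% of all genes. With the limit on the log2 fold change, Sox14 alone of the 9 was left, beside 1.31%. En1 was 2.02 ± 0.46 lower in iHoxc8 than in iHoxc9 (adjusted p = 0.00476), a call that held without the first iHoxc8 library and not without the second (0.019) or the third (0.044) or any 1 of the iHoxc9 libraries (0.015 to 0.020).

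From day 2 to day 4, En1, Sox14 and Sim1 rose while the V2b factors did not. Between control neurons and day 2 progenitors 4 of 9 genes were called, beside 42.4% of all genes. En1 was 3.68 ± 0.61 higher (adjusted p = 2.08e-05), and 4.86 higher without the third day 2 library. Sim1, with 1, 4 and 1 reads at day 2, was 2.77 ± 0.63 higher (adjusted p = 0.000733, but 0.012 without the first control library). Sox14, at 0 reads in each day 2 library, was at least 1.80-fold higher (adjusted p = 0.00156). Gata3 went down, from 37, 20 and 34 reads to 9, 9 and 3 (-1.97 ± 0.52, adjusted p = 0.00295), and this call did not hold without the first day 2 library (0.014) or the third control library (0.020). Tal1 varied widely at day 2, with 65, 78 and 14 reads, the lowest in the library that stands apart, where Hbb-bh1 held 18 reads against 132 and 149. Its control level differed from day 2 by -0.26 ± 0.41 (adjusted p = 0.642), and by -0.72 (0.031) without that library. Gata2 in control differed from day 2 by -0.89 ± 0.37 (adjusted p = 0.0471), and by -0.74 (0.109) without that library.

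Against day 2, iHoxc6 had 6 of 9 genes called beside 46.6% of all genes, and iHoxc8 had 4 beside 44.6%. All 9 were called in iHoxc9, beside 46.7% of all genes, and 5 of 9 in iHoxc10, beside 50.2%. These comparisons share the day 2 libraries. In iHoxc9 Sim1 was 260 times the day 2 level (counting interval 119 to 710) and Sox14 at least 10.5-fold higher. En1 was higher than at day 2 by 2.68 to 4.02 on the log2 scale in iHoxc6, iHoxc9 and iHoxc10, and by 3.86 to 5.20 without the third day 2 library. In iHoxc8 it gave 2.01 (adjusted p = 0.0205) and passed only without that library (3.19, adjusted p = 0.00694). In iHoxc6 it did not pass in a fit of the compared groups alone (2.69, adjusted p = 0.0127). The V2b factors were lower than at day 2: Tal1 by log2 changes of -4.61 to -2.00 over the 4 lines (-5.07 to -2.46 without the third day 2 library) and Gata2 by -2.69 in iHoxc9 and -1.95 in iHoxc10. The smallest Tal1 change was that of iHoxc10, whose libraries overlapped those of day 2. Its call did not hold in a fit of these groups alone (adjusted p = 0.0133). Without the third day 2 library Gata2 gave -2.54 in iHoxc9 and -1.81 in iHoxc10. Gata2 was also called in iHoxc6 (-1.34) and iHoxc8 (-1.20), but not without the third day 2 library (adjusted p = 0.011 and 0.023), the first (0.017 and 0.027) or the third (0.027 and 0.040) library of its own line, nor, in iHoxc8, without the second day 2 (0.016) or the second iHoxc8 (0.011) library. Of the 9 genes called in iHoxc9, Evx1 (-1.43), Pax2 (1.28) and Lbx1 (-1.43) depended on single libraries. Evx1 was not called without the second day 2 library (adjusted p = 0.061) or the first (0.028) or the third (0.023) iHoxc9 library. Pax2 was not called without the first (0.020) or the second (0.012) day 2 library or the second iHoxc9 library (0.039). Lbx1 was not called without the first (0.012) or the second (0.041) day 2 library or the first (0.052) or the third (0.021) iHoxc9 library.

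Other interneuron genes were read from 7 lists of 37 genes in all. In iHoxc6 3 of 37 passed against control, 2 higher and 1 lower, beside 0.587% of all genes, and in iHoxc8 2 of 37, both lower, beside 2.12%. In iHoxc9 15 of 37 passed, 8 higher and 7 lower, beside 14.1%, and in iHoxc10 13 of 37, 10 higher and 3 lower, beside 14.4%. Foxd3, a factor of V1 neurons, was higher than control in iHoxc10 (2.01 ± 0.48, adjusted p = 0.00368), while En1 did not pass there. The Foxd3 call did not hold without the first or the second library of control or of iHoxc10 (adjusted p from 0.013 to 0.016). Its direct difference between iHoxc9 and iHoxc10 (-1.54 ± 0.46, adjusted p = 0.0367) did not pass. Foxp2, a factor of a V1 subset, rose in both, with log2 changes of 2.07 ± 0.28 and 2.30 ± 0.28 (adjusted p = 9.2e-06 and 4.35e-06). Lhx1, a LIM-homeodomain factor shared by several interneuron classes and lateral MNs, held 474, 316 and 403 reads in control, 96, 138 and 95 in iHoxc9 and 2203, 1848 and 1365 in iHoxc10. It fell below control in iHoxc9 and rose above it in iHoxc10, and directly between these lines it was 4.10 ± 0.16 lower in iHoxc9 (adjusted p = 7.83e-14), the opposite direction to Sim1 and Sox14. Dmrt3, a factor of a dorsal class that settles ventrally, stood at 2.77 CPM in control, 3.82 in iHoxc9 and 16.4 in iHoxc10, a difference of 2.56 ± 0.20 in iHoxc10 against control (adjusted p = 6.8e-09).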

How the data were processed

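RNA was made from polyA-selected, stranded TruSeq libraries. Per the paper's methods the authors aligned reads with STAR 2.7.0c to mm10 and counted them per gene with featureCounts on RefSeq annotation. The deposited values are raw whole-number counts per gene and library, keyed by Entrez ID, of which 25275 of 27179 matched a symbol. The members and lists were chosen with earlier results of these data known.

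Counts of all 18 libraries were fitted together in edgeR 4.0.16 (R 4.3.3; TMM, glmQLFit and glmQLFTest, 1 mean per group) after keeping 20944 genes with at least 1 read in any iHox library. A gene was called at an adjusted p below 0.01 (Benjamini-Hochberg over all genes tested), and the limit of 2 on the absolute log2 fold change is given beside it. SE is the log2 fold change divided by the root of the F statistic. Fold ratios are of summed reads with exact binomial (Clopper-Pearson) intervals, which cover counting error only. Against groups at 0 a floor of 3 reads per library was used. The fits were also run on simulated counts with known changes, for iHoxc9 against control only. Genes with few reads were not among those changed, and the outcome is not reported here. Levels are CPM on TMM-scaled totals. Reads total 24498630 to 33168533 per library. Replicates are independent differentiations.

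Whether replicate numbers pair libraries was checked by the correlation of same-numbered libraries' deviations from their group means. The correlation was above 0.1 for every number between iHoxc6 and iHoxc8 (0.231 to 0.581) and between iHoxc6 and iHoxc9 (0.11 to 0.19). The same held between iHoxc9 and iHoxc10 (0.411 to 0.579) and in no other comparison. This does not establish that numbers pair the libraries: between iHoxc8 and iHoxc9 the values were 0.419, 0.179 and -0.283. The main fits used group only and paired no libraries.

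Named genes were the 9 members, their paralogs, and from the lists of other interneuron genes, per comparison, up to 8 with an adjusted p below 0.01, an absolute log2 fold change above 2, the largest change and no overlap between groups. Markers of other cell types were read by list. Nkx2-2, Foxp2 in iHoxc9, Foxd3 and the levels of single marker genes were chosen after their values were seen. Alternatives were DESeq2 1.42.0, its size factors, other filters, a replicate block, a fit of only the groups compared, other thresholds and leaving out each library. Promoter sequence is from RefSeq on GRCm38.p6; Lbx1 had no window in it. Alternatives for single other genes were chosen after seeing the data. Some genes of the lists are not reported here.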

Additional observations from a re-analysis of the deposited data

Results flagged for a closer look

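Among 54 tests of the 9 genes over the 6 pairs of induced lines, 13 differed between lines by edgeR's test of the difference itself, at an adjusted p below 0.01. Values are log2 differences of the first line against the second. Sim1 gave -4.84 for iHoxc6 against iHoxc9, -3.16 for iHoxc6 against iHoxc10, -4.15 for iHoxc8 against iHoxc9, -2.47 for iHoxc8 against iHoxc10 and 1.68 for iHoxc9 against iHoxc10. Pax2 gave -2.18 for iHoxc6 against iHoxc9, -2.01 for iHoxc6 against iHoxc10, -2.07 for iHoxc8 against iHoxc9 and -1.89 for iHoxc8 against iHoxc10. Sox14 gave -4.80 for iHoxc6 against iHoxc9, -5.38 for iHoxc8 against iHoxc9 and 3.53 for iHoxc9 against iHoxc10. Sox14 was at or under 3 reads in every library of iHoxc6, iHoxc8 and iHoxc10, so that these 3 fitted values depend on the prior count and are no bounds. Over the alternatives they ran from -7.91, without the second iHoxc6 library, to -4.24 and from -5.73 to -4.83, and the third from 3.00 to 3.72. En1 gave -2.02 for iHoxc8 against iHoxc9. Of these, the iHoxc9 and iHoxc10 differences of Sim1 and Sox14 lie within a sequencing run, where line and induced Hox gene cannot be told apart. In all others the run cannot be told apart from these either. No group had enough libraries for a test of single outlying libraries.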

How the results depend on the processing

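Reads were few for most of the 9 genes. Of 1614 alternative values of single members, 1546 kept the call or its absence, 58 lost a call and 10 gained 1. Of values called in either fit, 0 reversed direction. Direction was not counted where neither fit gave a call, and there some signs changed. Gata3 between iHoxc9 and iHoxc10, with a main difference of 0.00, differed in sign in 11 of 12 alternatives. For other named genes 352 of 371 values kept the call and 19 lost it. All 108 alternative levels stayed within the replicate SD.

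Counts of members called moved by more than 1.5 times in these cases. Against control, iHoxc8 had 1, and 2 at an adjusted p below 0.05 and 0 to 2 when a library was left out. iHoxc10 against control had 2, and 1 with at least 10 counts in 3 libraries, 1 with the fold limit of 2 and 1 without any 1 library. It also had 1 with the replicate block, which lost Tal1. In that comparison the correlation of same-numbered libraries ran from -0.307 to 0.291. iHoxc10 against day 2 had 5, and 3 with the fold limit. iHoxc6 against iHoxc9 had 3, and 5 at 0.05. iHoxc6 against iHoxc10 had 2, and 4 in a fit of these groups alone, 4 at 0.05 and 1 to 2 when a library was left out. iHoxc8 against iHoxc10 had 2, and 1 with the fold limit and 1 to 2 when a library was left out. iHoxc9 against iHoxc10 had 2, and 1 with the fold limit.

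For other interneuron genes, iHoxc6 against control had 3, and 5 by DESeq2, 1 with the groups alone, 1 with the fold limit, 7 at 0.05 and 1 to 4 when a library was left out. iHoxc8 against control had 2, and 1 with the replicate block, 1 with the groups alone, 9 at 0.05 and 1 to 4 when a library was left out. iHoxc9 against control had 15, and 9 with the fold limit and 23 at 0.05. Control against day 2 had 16, and 7 with the groups alone and 6 with the fold limit. iHoxc6 against day 2 had 19 and iHoxc9 against iHoxc10 had 11, and 7 and 6 with the fold limit. The cause of these differences was not tested. In the comparisons where same-numbered libraries correlated above 0.1 for every number, the replicate block changed no call of a member.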

Other observations

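Of the GATA factors that do not mark interneurons, Gata6 rose and Gata4 fell in iHoxc9, where Gata2 was also lower than control. Gata6, a gene of endoderm and heart, held 21, 23 and 11 reads in control and 57, 84 and 44 in iHoxc9, where every library was above control (log2 change 1.71 ± 0.30, edgeR adjusted p = 0.000247), and in iHoxc10 it held 14, 9 and 7, a difference between these lines of 2.54 ± 0.33 (1.17e-05). Gata4, another endoderm and heart gene, held 86, 94 and 73 reads at day 2, 5, 12 and 2 in control and 0 in all 3 iHoxc9 libraries, at least 2.15-fold lower than control against a floor of 3 reads per library (adjusted p = 0.00457, and 0.012 to 0.018 without the second control library or any 1 iHoxc9 library). Sox17, an endoderm marker, was at or under 3 reads in every library at day 4. Among dorsal genes, Wt1, which the kidney also uses, held 40, 37 and 17 reads in control and 3, 8 and 1 in iHoxc9 (-2.96 ± 0.48, adjusted p = 0.000107). Prrxl1, a gene of dorsal sensory relay neurons, held 4, 1 and 6 reads in control and 21, 30 and 20 in iHoxc10 (2.70 ± 0.60, adjusted p = 0.00202, and 0.011 without the first control or the second iHoxc10 library). In iHoxc6, within the control's own line and run, Tlx3 rose from 19, 12 and 21 reads to 76, 67 and 69 (1.93 ± 0.33, adjusted p = 0.00235, and 0.019 and 0.015 without the first control and the first iHoxc6 library), while no member passed as higher. From day 2 to control, Lhx2 fell (-3.59, adjusted p = 3.35e-07) and Lhx1 rose (2.48, 1.19e-11).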
